A study of Homo sapiens with 30 samples.

Results

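The 43 genes described here encode the machinery that copies DNA in S phase: the proteins that license and fire replication origins, the replicative polymerases, the sliding clamp and strand-joining enzymes, the enzymes that supply deoxynucleotides, and 5 regulators of S phase and of newly made chromatin. They were taken by gene symbol, matched to the Ensembl identifiers of a count table with 60675 genes, and each of the 43 symbols matched 1 identifier. All 43 passed the filter on low counts, as did 19632 genes in all.

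The cells were SW1783, a line derived from a human astrocytoma (ATCC HTB-13), treated for 24 h with ethanol extracts of traditional herbal formulas. Banhasasim-tang, Sayeok-tang and Bojungikgi-tang extracts were given at 20, 100 and 500 µg/mL, with 2 libraries per dose for Banhasasim-tang and 3 for each of the other formulas. Yijung-tang extract was given at the same 3 doses with 1 library per dose. The vehicle group had 3 libraries, which the sample labels describe as 0.1% DMSO and the series' design text as 2% DMSO. Sample names put the Banhasasim-tang and Yijung-tang libraries in a set numbered 14, the Sayeok-tang and Bojungikgi-tang libraries in a set numbered 15, and the vehicle libraries in a set named E1. Comparisons between doses of 1 formula therefore stayed inside 1 set, whereas against vehicle the treatment and the set cannot be told apart. The labels do not say that replicates were separate cultures, so p-values measure the spread between these libraries, which may be technical.

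Before S phase, the origin recognition complex, CDC6 and CDT1 load rings of MCM2 to MCM7 onto DNA, a step called licensing. CDC7 with its partner DBF4, together with MCM10, CDC45 and the GINS complex, turns the loaded ring into an active helicase, and polymerases alpha, delta and epsilon then copy the strands behind it. Many of these genes are transcribed as cells enter S phase under E2F transcription factors, so their messenger RNA is widely used as a sign of proliferation. RNA from bulk cultures averages over all cells, and here fewer cells in S phase and less of each RNA per S-phase cell cannot be told apart.

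Libraries held 28.01 to 59.9 M expected counts (M, units of 1000000 counts), and the lowest level of any of the 43 genes in any library was 7.39 counts per M of the library (CPM), for ORC1. Of 9 astrocyte markers, VIM, GJA1, SOX9 and SLC1A3 averaged 4280, 243, 73.9 and 34.6 CPM in vehicle libraries, whereas SLC1A2, S100B, GFAP and ALDH1L1 averaged 0.339, 0.211, 0.082 and 0.023 CPM and AQP4 was at 0. Under Banhasasim-tang SLC1A3 averaged 7.93 CPM at 500 µg/mL against 29.8 CPM at 20 µg/mL, GJA1 153 against 214 CPM and SOX9 50.2 against 68.5 CPM. The sum of the 9, mostly VIM, was 4982 to 5387 against 5000 to 5283 CPM there. At the same doses the sum was lower without overlap under Sayeok-tang, at 3664 to 3896 against 4036 to 4932 CPM. It was also lower without overlap under Bojungikgi-tang, at 3619 to 3772 against 4606 to 5133 CPM. VIM averaged 3447 against 4248 CPM for Sayeok-tang and 3387 against 4571 CPM for Bojungikgi-tang. GJA1 was instead slightly higher at 500 µg/mL, at 210 against 209 and 222 against 210 CPM in that order. The mitochondrial share of counts was 5.06 to 5.42% in vehicle libraries and 8.88 to 10.05% at 20, 13.57 to 14.45% at 100 and 12.04 to 12.62% at 500 µg/mL of Banhasasim-tang, and it lay between 6.56 and 8.78% in every Sayeok-tang and Bojungikgi-tang library.

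Summed levels of neuron and epithelial markers were lower at 500 than at 20 µg/mL under all 3 formulas, without overlap between libraries. At 500 against 20 µg/mL the 5 neuron markers summed to 97.0 to 102 against 159 to 166 CPM for Banhasasim-tang. The sums were 110 to 113 against 163 to 170 CPM for Sayeok-tang, and 153 to 159 against 168 to 185 CPM for Bojungikgi-tang. Not all 5 fell. Under Banhasasim-tang TUBB3 averaged 45.7 against 96.5 CPM and SNAP25 10.1 against 31.3 CPM. MAP2 averaged 13.1 against 7.91 CPM, SYT1 30.5 against 26.3 CPM and RBFOX3 0.269 against 0.219 CPM, all higher at 500 µg/mL. The 4 epithelial markers, mostly KRT18, summed to 112 to 115 CPM at 500 µg/mL against 216 to 220 CPM at 20 µg/mL of Banhasasim-tang, to 138 to 143 against 228 to 231 CPM for Sayeok-tang, and to 105 to 110 against 203 to 246 CPM for Bojungikgi-tang, with EPCAM and CDH1 averaging below 0.1 CPM in every group. The 5 myeloid markers, mostly CD68, summed to 213 to 243 CPM at 500 µg/mL against 195 to 220 CPM at 20 µg/mL of Banhasasim-tang. For Sayeok-tang the sums were 235 to 242 against 190.2 to 223 CPM, and for Bojungikgi-tang 230 to 248 against 199 to 219 CPM. PTPRC of this list was instead lower at 500 than at 20 µg/mL, at 3.16 against 11.8 CPM for Banhasasim-tang. It averaged 5.91 against 12.0 CPM for Sayeok-tang and 7.31 against 12.8 CPM for Bojungikgi-tang. CSF1R averaged 1.585 against 4.15, 2.82 against 4.11 and 4.26 against 4.06 CPM in that order of formulas. The 5 oligodendrocyte markers summed to at most 11.2 CPM in every library. The part of these shifts in the replication gene results was not tested.

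Per kilobase of annotated exon, the vehicle level was highest for PCNA, the sliding clamp, at 99.8 CPM per kilobase. MCM7 followed at 45.8, then MCM3, RRM1 and RRM2 at 40.6 to 40.7, and TYMS at 36.1 CPM per kilobase. The lowest was GINS3, a GINS subunit, at 2.47 CPM per kilobase, below LIG1 at 4.10 and POLE, the catalytic subunit of polymerase epsilon, at 4.83. Which transcripts the cells expressed was not resolved, so these ranks depend on the annotated lengths, 16609 bases for POLE and 6576 for LIG1.

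Promoter windows of 300 bases, 250 before and 50 after the start of transcription, were read from RefSeq (GRCh38.p14) for 38 of the 43 genes. MCM4, MCM5, GINS4, POLD3 and RPA2 were not matched. An E2F word (TTTGGCGC, TTTGCCGC, TTTCGCGC or TTTCCCGC, on either strand) was present in 21 of the 38 genes (55.3%), against 3.99% of 27305 genes with a window. CCAAT, the word bound by NF-Y, was present on either strand in 22 of the 38 (57.9%) and in 39.7% of all genes. The word TTTGAA, found in the cell cycle homology region of many mitotic promoters, was present in 2 of the 38 (5.26%) and in 18.2% of all genes. A word is a match of letters and not a measured binding site. The windows below are those of the 3 genes with the lowest and the 2 with the highest fold change under Sayeok-tang, then UHRF1 and CDC6, which were added after their values were seen because they lay at the ends of the response to Banhasasim-tang. Where RefSeq listed several starts, as for RRM2, POLD1 and UHRF1, the first is shown. Capitals mark each E2F or CCAAT word, read on either strand.
TYMS (chr18:657403-657702, plus strand): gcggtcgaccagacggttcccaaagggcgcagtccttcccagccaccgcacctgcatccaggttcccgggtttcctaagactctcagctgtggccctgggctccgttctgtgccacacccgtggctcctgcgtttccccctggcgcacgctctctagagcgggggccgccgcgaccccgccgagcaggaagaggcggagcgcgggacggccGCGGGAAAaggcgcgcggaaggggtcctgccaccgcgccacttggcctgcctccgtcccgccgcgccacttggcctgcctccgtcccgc
RRM2 (chr2:10122489-10122788, plus strand): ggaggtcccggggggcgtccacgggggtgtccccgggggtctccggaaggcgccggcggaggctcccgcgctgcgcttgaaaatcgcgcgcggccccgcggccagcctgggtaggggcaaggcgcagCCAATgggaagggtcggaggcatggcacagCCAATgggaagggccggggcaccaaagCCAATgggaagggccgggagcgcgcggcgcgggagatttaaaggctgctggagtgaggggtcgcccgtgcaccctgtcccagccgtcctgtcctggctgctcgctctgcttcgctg
POLA1 (chrX:24693668-24693967, plus strand): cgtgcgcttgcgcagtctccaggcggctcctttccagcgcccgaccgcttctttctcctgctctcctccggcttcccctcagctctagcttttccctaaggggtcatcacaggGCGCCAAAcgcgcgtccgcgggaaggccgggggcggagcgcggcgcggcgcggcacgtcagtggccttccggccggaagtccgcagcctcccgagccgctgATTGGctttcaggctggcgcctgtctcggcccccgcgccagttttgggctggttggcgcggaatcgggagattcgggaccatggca
POLE2 (chr14:49688165-49688464, minus strand): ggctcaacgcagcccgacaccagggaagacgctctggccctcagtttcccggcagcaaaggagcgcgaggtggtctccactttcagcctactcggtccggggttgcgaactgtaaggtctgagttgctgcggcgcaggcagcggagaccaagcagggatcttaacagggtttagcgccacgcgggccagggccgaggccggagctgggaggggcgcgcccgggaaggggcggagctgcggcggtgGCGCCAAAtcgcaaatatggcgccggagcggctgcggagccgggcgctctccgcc
POLD1 (chr19:50384073-50384372, plus strand): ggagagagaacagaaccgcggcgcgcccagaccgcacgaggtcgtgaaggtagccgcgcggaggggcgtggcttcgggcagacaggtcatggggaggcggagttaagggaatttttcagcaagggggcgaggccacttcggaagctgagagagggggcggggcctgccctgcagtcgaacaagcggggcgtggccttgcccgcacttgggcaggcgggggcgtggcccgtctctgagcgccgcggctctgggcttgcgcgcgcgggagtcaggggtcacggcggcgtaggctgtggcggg
UHRF1 (chr19:4909251-4909550, plus strand): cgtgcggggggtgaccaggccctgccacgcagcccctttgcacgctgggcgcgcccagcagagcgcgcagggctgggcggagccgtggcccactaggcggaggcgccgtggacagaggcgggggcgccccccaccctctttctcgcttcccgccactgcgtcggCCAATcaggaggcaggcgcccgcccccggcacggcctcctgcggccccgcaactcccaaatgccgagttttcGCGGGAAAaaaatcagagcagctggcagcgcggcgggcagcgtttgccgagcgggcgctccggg
CDC6 (chr17:40287629-40287928, plus strand): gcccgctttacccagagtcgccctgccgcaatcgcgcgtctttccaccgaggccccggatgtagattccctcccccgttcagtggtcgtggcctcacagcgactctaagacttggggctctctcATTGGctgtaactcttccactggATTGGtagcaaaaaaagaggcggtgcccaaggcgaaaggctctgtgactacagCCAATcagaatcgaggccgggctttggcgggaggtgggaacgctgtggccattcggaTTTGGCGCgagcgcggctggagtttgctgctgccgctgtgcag
TYMS, POLA1, POLE2, UHRF1 and CDC6 each held an E2F word in these windows. RRM2 held 3 CCAAT words and none of the E2F words, and POLD1 held neither. CDC6 had both an E2F word and 3 CCAAT words, and its level at 500 µg/mL of Banhasasim-tang was the highest of its dose series.

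The first question was how the replication genes varied with the dose of each formula. At 500 against 20 µg/mL, 41 of the 43 genes fell under Banhasasim-tang, 25 fell under Sayeok-tang and 5 fell under Bojungikgi-tang (edgeR quasi-likelihood test, Benjamini-Hochberg adjusted p below 0.05). Over all genes tested, 21.3% were called lower under Banhasasim-tang, 10.6% under Sayeok-tang and 8.90% under Bojungikgi-tang. The 5 genes under Bojungikgi-tang were 11.6% of the 43, near its share of all genes. The median log2 fold change of the 43 genes was -0.51, -0.14 and -0.06 in that order of formulas, and that of all genes was within 0.01 of 0 in each. Summed over the 43 genes, the level was 2698 to 2701 CPM at 20, 2228 to 2261 CPM at 100 and 1804 to 1815 CPM at 500 µg/mL of Banhasasim-tang, and the 3 doses did not overlap. For Sayeok-tang the sum was 2420 to 2523 CPM at 500 µg/mL and 2776 to 2878 CPM at 20 µg/mL, again without overlap. For Bojungikgi-tang it was 2685 to 2686 CPM at 500 µg/mL and 2791 to 2934 CPM at 20 µg/mL.

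**Figure D1:**
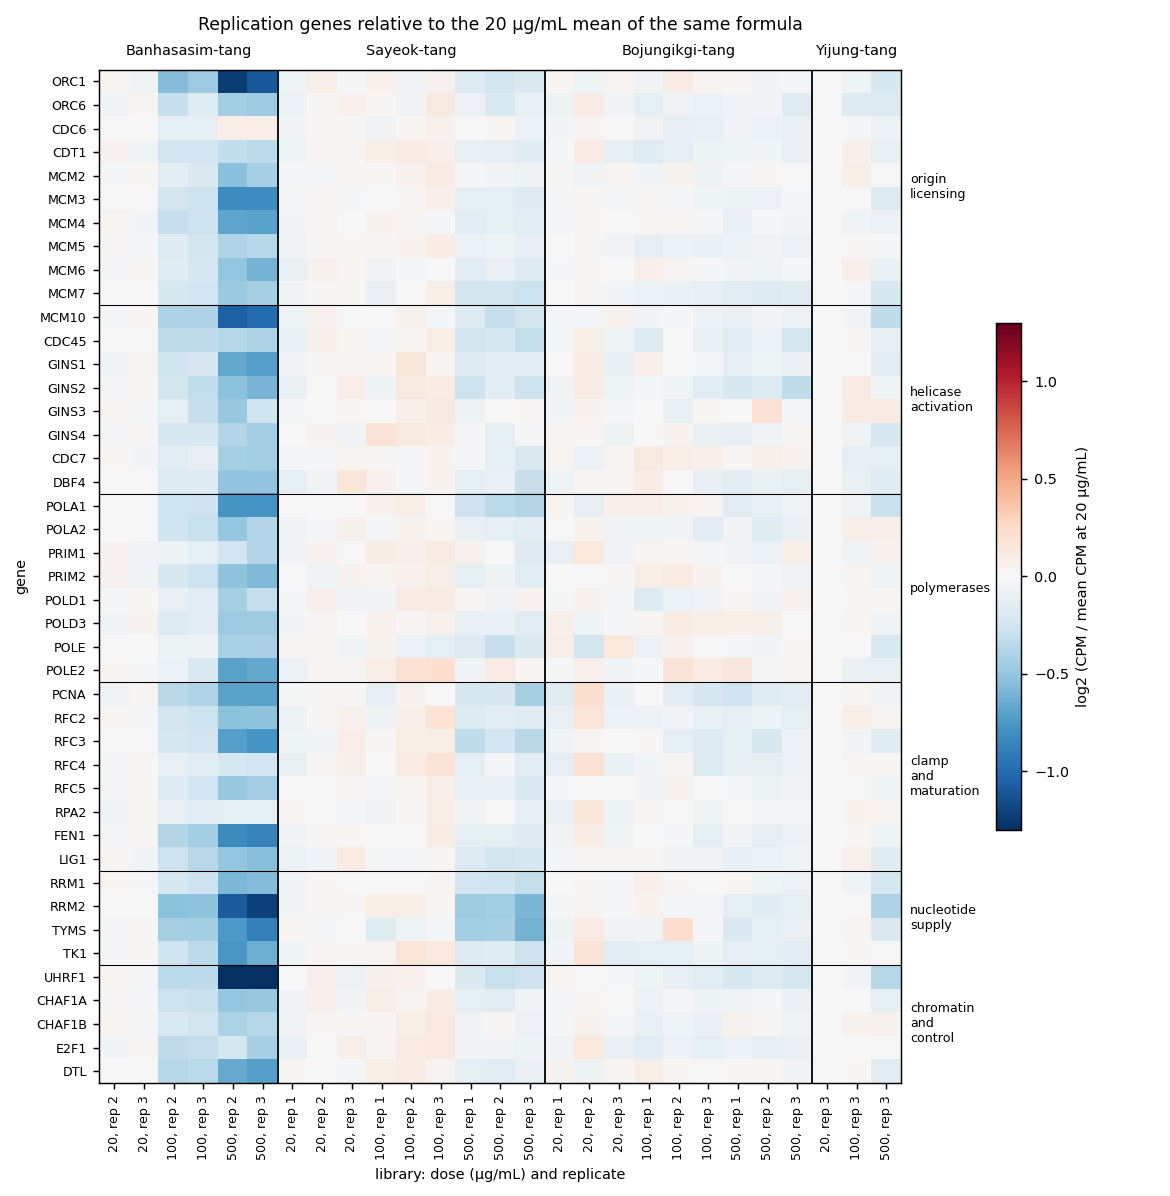
Log2 ratio of the CPM of each gene (rows, by role) in each library (columns, by formula, dose and replicate) to the mean CPM at 20 µg/mL of the same formula, on a color scale from blue (lower) to red (higher). The Banhasasim-tang columns darken from 20 to 100 to 500 µg/mL in nearly every row, CDC6 turns pale red at 500 µg/mL, and under Sayeok-tang the blue is deepest in RRM2 and TYMS at 500 µg/mL.

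Library by library, both Banhasasim-tang libraries at 500 µg/mL lay below both at 20 µg/mL for 42 genes, where 35.1% of all genes tested did so. All 3 Sayeok-tang libraries at 500 µg/mL lay below all 3 at 20 µg/mL for 30 genes, against 17.6% of all genes. For Bojungikgi-tang this held for 16 genes, against 15.2% of all genes. Of the counts of genes passing the test, that for Sayeok-tang was 16 when libraries were scaled by total counts alone, where 7.96% of all genes were called lower. It was also 16 without its replicate 2 at 20 µg/mL. That for Bojungikgi-tang was 1 when only the compared groups were fitted and 3 under scaling by total counts. These were near the shares of all genes called lower there, 4.12% and 5.21%. The count for Bojungikgi-tang was also 3 without replicate 3 at 500 µg/mL. That for Banhasasim-tang was 41 when mitochondrial genes were left out before scaling, where 22.2% of all genes were called lower.

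**Figure D2:**
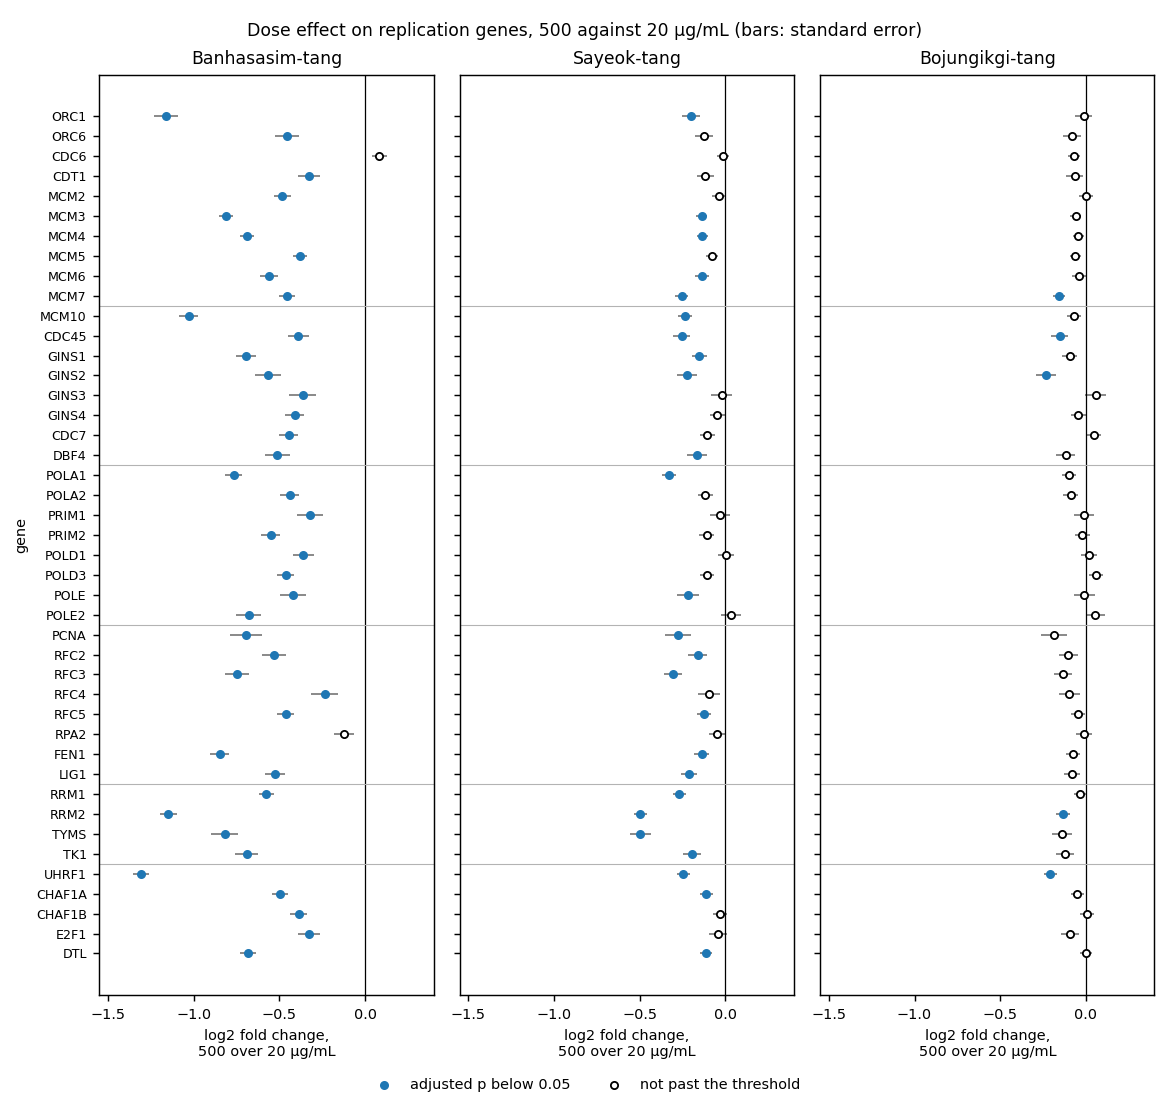
Log2 fold change of each gene at 500 over 20 µg/mL (horizontal axis) with its standard error, for Banhasasim-tang (2 libraries per dose), Sayeok-tang and Bojungikgi-tang (3 per dose), with filled points for adjusted p below 0.05. Under Banhasasim-tang 41 points are filled and reach -1.31 for UHRF1, under Sayeok-tang 25 are filled and reach -0.50, and under Bojungikgi-tang 5 are filled and reach -0.23 for GINS2.

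Among the 10 licensing genes, 9 fell under Banhasasim-tang, 5 under Sayeok-tang and 1, MCM7, under Bojungikgi-tang at 500 against 20 µg/mL. ORC1, the largest subunit of the origin recognition complex, fell most under Banhasasim-tang. Its level was 17.9 and 16.9 CPM at 20, 11.8 and 12.6 CPM at 100, and 7.39 and 8.13 CPM at 500 µg/mL, with no overlap between doses. This was a 2.24-fold fall at 500 against 20 µg/mL (log2 -1.16 ± 0.07 SE, adjusted p = 1.69e-13). Under Sayeok-tang ORC1 was 16.6, 15.9 and 16.5 CPM at 500 µg/mL, against 18, 19.7 and 18.5 CPM at 20 µg/mL, a smaller fall of 0.20 on the log2 scale (adjusted p = 0.00699) that was not called without the second replicate at 20 µg/mL. Under Bojungikgi-tang its libraries overlapped, with 17.9, 17.3 and 17.5 CPM at 500 µg/mL and 18, 17.0 and 18.2 CPM at 20 µg/mL.

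The 6 subunits of the MCM ring all fell under Banhasasim-tang, by 0.38 (MCM5) to 0.81 (MCM3) on the log2 scale. MCM3 averaged 83.7 ± 0.2 CPM at 500 µg/mL and 147 ± 0.8 CPM at 20 µg/mL (SD, n = 2 each), a 1.75-fold difference. The subunits of this single ring thus differed in the size of their fall by more than their standard errors of 0.04 to 0.05. MCM7, the subunit with the highest level per kilobase, passed the test under all 3 formulas. Under Banhasasim-tang MCM7 was 153 and 158 CPM at 500 µg/mL, against 213 and 214 CPM at 20 µg/mL. Under Sayeok-tang it was 185, 185 and 180.1 CPM at 500 µg/mL, against 213, 221 and 223 CPM at 20 µg/mL. Under Bojungikgi-tang it was 198, 193 and 195 CPM at 500 µg/mL, against 218, 223 and 213 CPM at 20 µg/mL, and in each formula the 2 doses did not overlap. The log2 changes were -0.46 ± 0.05, -0.26 ± 0.04 and -0.16 ± 0.04 (SE), with adjusted p of 2.8e-09, 6.22e-06 and 0.00322, all from edgeR's quasi-likelihood test.

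CDC6, which with CDT1 loads the MCM ring, was the 1 gene of the 43 with a positive log2 change under Banhasasim-tang at 500 against 20 µg/mL. Its level was 90.7 and 90.9 CPM at 20, 83.1 and 83.0 CPM at 100, and 96.7 and 95.7 CPM at 500 µg/mL. The libraries at 500 µg/mL were the highest and those at 100 µg/mL the lowest, but the log2 change at 500 against 20 µg/mL, 0.08 ± 0.04 (SE), did not pass the test (adjusted p = 0.132). Under Sayeok-tang CDC6 was 96.7, 97.5 and 91.0 CPM at 500 µg/mL, against 93.7, 97.7 and 96.8 CPM at 20 µg/mL, and the doses overlapped. Under Bojungikgi-tang it was 90.3, 88.6 and 87.3 CPM at 500 µg/mL, against 90.6, 95.5 and 93.2 CPM at 20 µg/mL. CDT1, its partner in loading, fell under Banhasasim-tang by 0.33 on the log2 scale, and ORC6 by 0.46.

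**Figure D3:**
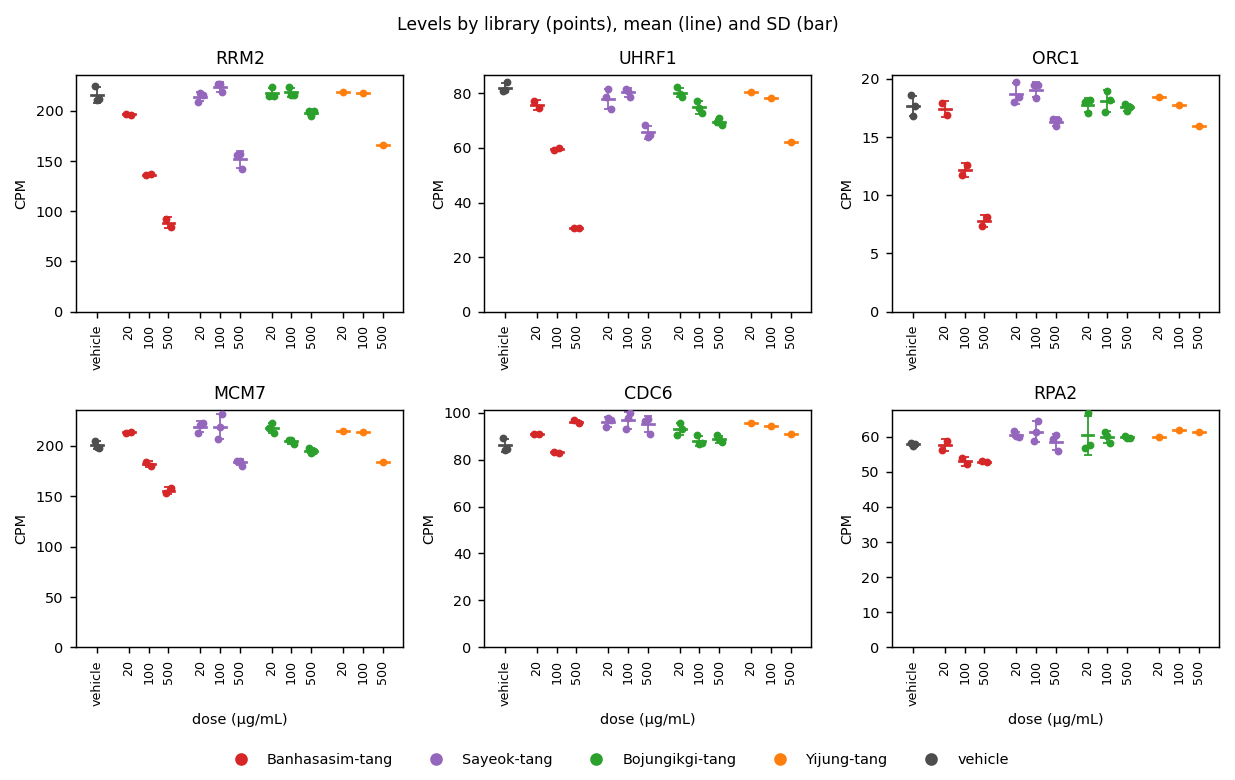
CPM (vertical axis, from 0) of 6 genes in each library (points), with group mean (line) and SD (bar), by dose in µg/mL for each formula, with vehicle at the left. RRM2, UHRF1 and ORC1 step down with dose under Banhasasim-tang to 30.6 to 30.7 CPM for UHRF1 at 500 µg/mL, MCM7 is lower at 500 than at 20 µg/mL under every formula, and CDC6 and RPA2 vary little.

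All 8 genes of helicase activation fell under Banhasasim-tang, 5 fell under Sayeok-tang, and CDC45 and GINS2 fell under Bojungikgi-tang. MCM10, which helps to activate the helicase and bind polymerase alpha, was 30.2 and 31.5 CPM at 20, 23.3 and 23.3 CPM at 100, and 14.8 and 15.4 CPM at 500 µg/mL of Banhasasim-tang. It fell 2.04-fold at 500 against 20 µg/mL (log2 -1.03 ± 0.06 SE, adjusted p = 1.19e-14). Under Sayeok-tang MCM10 was 29.4, 27.1 and 28.3 CPM at 500 µg/mL, against 31.9, 34.6 and 33.3 CPM at 20 µg/mL, a fall of 0.24 on the log2 scale (adjusted p = 0.000139). Bojungikgi-tang libraries had 30.6, 31.7 and 31.1 CPM at 500 µg/mL, against 32.1, 32.1 and 33.8 CPM at 20 µg/mL (log2 -0.07 ± 0.04 SE, adjusted p = 0.29). CDC45, which with MCM and GINS forms the active helicase, had 20.2 and 19.8 CPM at 500 µg/mL of Banhasasim-tang, against 26.1 and 26.2 CPM at 20 µg/mL. Under Sayeok-tang CDC45 had 23.6, 23.8 and 22.5 CPM at 500 µg/mL, against 26.1, 29.1 and 28.4 CPM at 20 µg/mL. Under Bojungikgi-tang it had 25.1, 26.4 and 23.9 CPM at 500 µg/mL, against 27.6, 29.4 and 26.8 CPM at 20 µg/mL. The doses did not overlap under any of the 3 formulas, with log2 changes of -0.39, -0.26 and -0.15 and adjusted p of 1.07e-05, 0.000371 and 0.0359.

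The 4 subunits of GINS fell unequally. Under Banhasasim-tang GINS1 fell by 0.69, GINS2 by 0.57, GINS4 by 0.41 and GINS3 by 0.36 on the log2 scale. GINS2 had the largest change of the 43 genes under Bojungikgi-tang, with 21.3, 21.7 and 19.6 CPM at 500 µg/mL, against 23.9, 26.2 and 23.6 CPM at 20 µg/mL. It fell there by 0.23 ± 0.06 on the log2 scale (SE, adjusted p = 0.00582). GINS3 had the highest log2 change of this role under Sayeok-tang, -0.02 ± 0.06 (SE), with 14.1, 14.8 and 15.0 CPM at 500 µg/mL, against 14.6, 14.8 and 15.1 CPM at 20 µg/mL. Under Bojungikgi-tang GINS3 was 14.5, 16.6 and 14.5 CPM at 500 µg/mL, against 14.2, 15.1 and 14.4 CPM at 20 µg/mL, so the doses overlapped under both. CDC7, the kinase that fires origins, fell by 0.45 and DBF4, its activating subunit, by 0.51 under Banhasasim-tang.

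The 8 polymerase genes fell together under Banhasasim-tang, whereas 2, POLA1 and POLE, fell under Sayeok-tang. Under Bojungikgi-tang none of the 8 passed edgeR's test, and 2 had an unadjusted p below 0.05, as did 5452 of all 19632 genes tested. DESeq2 called 5 of the 43 genes lower in all, where it called 11.3% of all genes lower. POLA1, the catalytic subunit of polymerase alpha, which begins each new strand with the primase, was 60.2 and 60.7 CPM at 20, 50.6 and 50.2 CPM at 100, and 35.5 CPM in both libraries at 500 µg/mL of Banhasasim-tang. Under Sayeok-tang it was 54.4, 51.5 and 50.6 CPM at 500 µg/mL, against 65.9, 65.8 and 65.4 CPM at 20 µg/mL. Under Bojungikgi-tang it was 57.9, 59.7 and 61.2 CPM at 500 µg/mL, against 65.1, 59.1 and 67.0 CPM at 20 µg/mL, where the doses overlapped. POLA1 fell 1.70-fold under Banhasasim-tang (adjusted p = 9.79e-13) and 1.26-fold under Sayeok-tang (adjusted p = 4.87e-07), while its log2 change under Bojungikgi-tang was -0.10 ± 0.04 (SE, adjusted p = 0.107).

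The primase subunits PRIM1 and PRIM2 fell under Banhasasim-tang by 0.32 and 0.55 on the log2 scale, and POLD1, the catalytic subunit of polymerase delta, by 0.36. POLE2, the second subunit of polymerase epsilon, fell 1.6-fold under Banhasasim-tang and had the highest log2 change of the 43 genes under Sayeok-tang, 0.03 ± 0.06 (SE). Its level was 9.61 and 9.84 CPM at 500 µg/mL of Banhasasim-tang, against 15.8 and 15.3 CPM at 20 µg/mL. Under Sayeok-tang it was 14.7, 16.2 and 15.3 CPM at 500 µg/mL, against 14.3, 15.5 and 15.5 CPM at 20 µg/mL, and under Bojungikgi-tang 17.1, 15.2 and 15.8 CPM at 500 µg/mL, against 15.3, 16.1 and 15.0 CPM at 20 µg/mL. POLE2 was thus low in the Banhasasim-tang libraries at 500 µg/mL, whereas its doses overlapped under the other formulas.

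Of the 8 genes of the clamp, its loader and strand maturation, 7 fell under Banhasasim-tang and 6 under Sayeok-tang. PCNA, the clamp that holds polymerases on DNA, averaged 83.3 ± 0.2 CPM at 500 µg/mL and 135 ± 5.4 CPM at 20 µg/mL of Banhasasim-tang (SD, n = 2 each). FEN1, the nuclease that trims the ends of lagging-strand fragments, was 62.0 and 64.5 CPM at 20, 48.7 and 46.6 CPM at 100, and 35.6 and 34.7 CPM at 500 µg/mL of Banhasasim-tang, a 1.80-fold fall at 500 against 20 µg/mL (adjusted p = 4.67e-13). Under Sayeok-tang FEN1 was 60.3, 60.5 and 58.9 CPM at 500 µg/mL, against 64.1, 66.6 and 67.2 CPM at 20 µg/mL, a fall of 0.14 on the log2 scale (adjusted p = 0.0214). FEN1 was, under Bojungikgi-tang, 64.4, 61.9 and 62.8 CPM at 500 µg/mL, against 64.5, 71.1 and 63.8 CPM at 20 µg/mL, where the doses overlapped. LIG1, the ligase that joins these fragments, fell by 0.53 under Banhasasim-tang and by 0.21 under Sayeok-tang on the log2 scale.

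RFC3, a subunit of the clamp loader, was 18.6 and 17.9 CPM at 500 µg/mL of Banhasasim-tang, against 30.8 and 30.4 CPM at 20 µg/mL. Under Sayeok-tang it was 26.0, 27.5 and 25.4 CPM at 500 µg/mL, against 31.3, 31.9 and 34.7 CPM at 20 µg/mL, and the doses did not overlap under either formula. RFC3 fell 1.68-fold under Banhasasim-tang (adjusted p = 5.15e-10) and 1.24-fold under Sayeok-tang (adjusted p = 7.65e-05). RFC3 was, under Bojungikgi-tang, 29.2, 27.7 and 30.4 CPM at 500 µg/mL, against 31.0, 32.9 and 32.0 CPM at 20 µg/mL, without overlap, but its log2 change of -0.14 ± 0.05 (SE) did not pass the test (adjusted p = 0.0791). The other loader subunits differed from it in size, with falls under Banhasasim-tang of 0.53 for RFC2, 0.46 for RFC5 and 0.24 for RFC4 on the log2 scale. RFC4 had the smallest fall of the 41, and its call was lost without either library at 500 µg/mL or the third replicate at 20 µg/mL. RPA2, a subunit of the complex that coats single-stranded DNA, had the smallest change of this role under all 3 formulas. Its level was 53.1 and 52.6 CPM at 500 µg/mL of Banhasasim-tang, against 56.3 and 58.8 CPM at 20 µg/mL (log2 -0.12 ± 0.06 SE, adjusted p = 0.098). RPA2 was 59.3, 60.5 and 55.9 CPM at 500 µg/mL of Sayeok-tang, against 61.5, 60.3 and 60 CPM at 20 µg/mL, and 60.1, 59.7 and 59.8 CPM at 500 µg/mL of Bojungikgi-tang, against 56.8, 66.8 and 57.6 CPM at 20 µg/mL. The doses of RPA2 overlapped under both formulas.

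All 4 enzymes of deoxynucleotide supply fell under both Banhasasim-tang and Sayeok-tang, and the median log2 change of this role, -0.76 under Banhasasim-tang and -0.38 under Sayeok-tang, was the lowest of the 6 roles in each. RRM2, the S-phase subunit of ribonucleotide reductase, was 197 and 196 CPM at 20, 136 and 137 CPM at 100, and 92.6 and 84.8 CPM at 500 µg/mL of Banhasasim-tang. Under Sayeok-tang RRM2 was 209, 218 and 216 CPM at 20, 227, 227 and 219 CPM at 100, and 156, 157 and 142 CPM at 500 µg/mL. Under Bojungikgi-tang it was 215, 223 and 214 CPM at 20, 224, 216 and 216 CPM at 100, and 199.7, 195 and 199.9 CPM at 500 µg/mL. RRM2 was thus lower at each step under Banhasasim-tang, and lower at 500 µg/mL alone under the other formulas. At 500 against 20 µg/mL it fell 2.22-fold under Banhasasim-tang (log2 -1.15 ± 0.05 SE, adjusted p = 1.23e-16), 1.41-fold under Sayeok-tang (log2 -0.50 ± 0.04 SE, adjusted p = 2.75e-10) and by 0.13 ± 0.04 on the log2 scale under Bojungikgi-tang (adjusted p = 0.0205). The call under Bojungikgi-tang was lost without its second replicate at either dose.

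RRM1, the large subunit that pairs with RRM2, fell less than RRM2. Its level was 107 and 108 CPM at 500 µg/mL of Banhasasim-tang, against 163 and 157 CPM at 20 µg/mL. Under Sayeok-tang it was 140.1, 139 and 134 CPM at 500 µg/mL, against 162, 169.9 and 167 CPM at 20 µg/mL, and under Bojungikgi-tang 168, 159 and 157 CPM at 500 µg/mL, against 165, 168 and 162 CPM at 20 µg/mL. The doses overlapped under Bojungikgi-tang and in neither of the other formulas, where RRM1 fell 1.49-fold (Banhasasim-tang) and 1.21-fold (Sayeok-tang). TYMS, thymidylate synthase, was 50 and 45.2 CPM at 500 µg/mL of Banhasasim-tang, against 83.0 and 84.8 CPM at 20 µg/mL. Under Sayeok-tang TYMS was 71.3, 72.5 and 63.8 CPM at 500 µg/mL, against 99.3, 96.1 and 98.0 CPM at 20 µg/mL, and its fall of 0.50 ± 0.06 on the log2 scale (SE, adjusted p = 8.51e-07) was close to that of RRM2. Under Bojungikgi-tang TYMS was 83.8, 87.6 and 89.8 CPM at 500 µg/mL, against 91.6, 103 and 92.7 CPM at 20 µg/mL, a log2 change of -0.14 ± 0.06 (SE) that did not pass the test. TYMS overlaps a gene on the other strand, ENOSF1, and no source used here says whether counting used strand. TK1, the thymidine salvage kinase, was 38.1 and 41.5 CPM at 500 µg/mL of Banhasasim-tang, against 63.9 and 65.1 CPM at 20 µg/mL, and 60.5, 60.7 and 56.4 CPM at 500 µg/mL of Sayeok-tang, against 65.4, 69.6 and 68.5 CPM at 20 µg/mL. Under Bojungikgi-tang TK1 was 64.9, 64.3 and 63.3 CPM at 500 µg/mL, against 67.5, 78.5 and 63.4 CPM at 20 µg/mL, and its log2 change of -0.12 ± 0.05 (SE) did not pass the test (adjusted p = 0.141).

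UHRF1, which reads hemimethylated DNA behind the fork and recruits the maintenance methyltransferase, had the largest fall of the 43 genes. Its level was 77.1 and 74.5 CPM at 20, 59.4 and 59.9 CPM at 100, and 30.7 and 30.6 CPM at 500 µg/mL of Banhasasim-tang, and the replicates at each dose lay close together. Under Sayeok-tang UHRF1 was 68.4, 64.1 and 64.8 CPM at 500 µg/mL, against 78.6, 81.4 and 74.2 CPM at 20 µg/mL. Under Bojungikgi-tang it was 69.5, 70.8 and 68.5 CPM at 500 µg/mL, against 82.3, 79.8 and 78.8 CPM at 20 µg/mL, and the doses overlapped under none of the 3 formulas. UHRF1 fell 2.47-fold under Banhasasim-tang (log2 -1.31 ± 0.05 SE, adjusted p = 3.68e-18), 1.19-fold under Sayeok-tang (adjusted p = 1.44e-05) and by 0.21 ± 0.04 on the log2 scale under Bojungikgi-tang (adjusted p = 0.000231). CHAF1A and CHAF1B, subunits of the factor that deposits histones on new DNA, fell by 0.50 and 0.39 under Banhasasim-tang. CHAF1B was 28.2 and 29 CPM at 500 µg/mL of Banhasasim-tang, against 38.1 and 36.8 CPM at 20 µg/mL. It was 37.7, 38.8 and 36.5 CPM at 500 µg/mL of Sayeok-tang, against 37.4, 39.2 and 38.9 CPM at 20 µg/mL, and 40.9, 39.9 and 37.8 CPM at 500 µg/mL of Bojungikgi-tang, against 39.0, 40.5 and 38.6 CPM at 20 µg/mL. The doses of CHAF1B overlapped under these last formulas. DTL, which targets CDT1 for destruction in S phase, averaged 38.0 ± 1.2 CPM at 500 µg/mL and 61.0 ± 0.1 CPM at 20 µg/mL of Banhasasim-tang (SD, n = 2 each).

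At the middle dose each formula was compared with its own libraries at 20 µg/mL, and the difference between formulas at that step was not tested. At 100 against 20 µg/mL of Banhasasim-tang, 32 of the 43 genes fell, against 2.96% of all genes called lower, and the median log2 change of the 43 was -0.24. The largest falls at that step were those of RRM2 (-0.53 ± 0.05), ORC1 (-0.52 ± 0.07), TYMS (-0.43 ± 0.08), FEN1 (-0.41 ± 0.05) and MCM10 (-0.40 ± 0.05), all log2 values with SE. The count was 19 without the third replicate at 100 µg/mL and 21 without the third replicate at 20 µg/mL, each of which left 1 library in its group, assumed to vary like the other groups. Under Sayeok-tang and Bojungikgi-tang no gene of the 43 passed edgeR's or DESeq2's test at 100 against 20 µg/mL. In edgeR's test 2 and 7 of the 43 had an unadjusted p below 0.05, where 1203 and 3003 of all 19632 genes tested did. Over all genes, 0.0102% were called lower under Sayeok-tang and 1.11% under Bojungikgi-tang at that step.

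At 500 against 100 µg/mL of Banhasasim-tang, a comparison added after the data were seen, 36 of the 43 genes fell and CDC6 rose (log2 0.21 ± 0.04 SE), against 15.7% of all genes called lower and 15.5% called higher. The sizes of the steps from 20 to 100 and from 100 to 500 µg/mL varied between genes, and this was not tested. E2F1, the transcription factor that drives entry into S phase, averaged 53.3 ± 1.8 CPM at 20, 43 ± 0.7 CPM at 100 and 42.6 ± 4.1 CPM at 500 µg/mL (SD, n = 2 each). Its log2 change was -0.31 ± 0.06 at 100 against 20 µg/mL and -0.02 ± 0.07 at 500 against 100 µg/mL (SE). CDC45 showed the same order of sizes, -0.33 ± 0.06 for the lower step and -0.06 ± 0.06 for the upper step. UHRF1 had the opposite order, -0.35 ± 0.05 for the lower step and -0.96 ± 0.05 for the upper step, and POLE2 had -0.14 ± 0.07 and -0.54 ± 0.08. RRM2 was divided more evenly, with -0.53 ± 0.05 and -0.62 ± 0.05. Group means were ordered 500 below 100 below 20 µg/mL for 42 genes under Banhasasim-tang, 18 under Bojungikgi-tang and 6 under Sayeok-tang. Under Sayeok-tang the mean at 100 µg/mL was below that at 20 µg/mL for 6 genes, and the mean at 500 µg/mL was below that at 100 µg/mL for all 43. These orders of means were not counted over all genes, so the counts have no share to be set against.

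The second question was whether the formulas differed. At 500 µg/mL, Sayeok-tang against Bojungikgi-tang, whose libraries belong to the same set, 7 genes were lower: RRM2, TYMS, RRM1, POLA1, LIG1, MCM10 and MCM4, against 6.12% of all genes. DESeq2 called 11 lower and 1 higher there, and a fit of the compared groups alone called 13 lower and 1 higher. The share of 6.12% comes from the edgeR fit of all groups, so these larger counts cannot be set against it. The shares of all genes called in their own fits are not given here. The larger counts therefore show only how the count varied with the method. RRM2 differed by -0.38 ± 0.04 and TYMS by -0.33 ± 0.06 on the log2 scale (SE). The difference between the 2 dose effects, tested as an interaction, passed for 4 genes, against 2.37% of all genes called lower. These were RRM2 (log2 -0.36 ± 0.06, adjusted p = 0.000142), TYMS (-0.36 ± 0.09, adjusted p = 0.0137), RRM1 (-0.24 ± 0.05, adjusted p = 0.00615) and POLA1 (-0.24 ± 0.06, adjusted p = 0.0135), each with SE from edgeR's quasi-likelihood fit. Of the 43 genes, 3 of the 4 enzymes of deoxynucleotide supply and the catalytic subunit of the priming polymerase thus fell more with dose under Sayeok-tang than under Bojungikgi-tang.

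Banhasasim-tang at 500 µg/mL was lower than Bojungikgi-tang at 500 µg/mL for 42 genes and higher for CDC6, against 22.6% of all genes called lower and 24.9% called higher. Against Sayeok-tang at 500 µg/mL it was lower for 41 genes, against 20.1% of all genes. Its dose effect was more negative than that of Bojungikgi-tang for 40 genes and more positive for CDC6, against 15.3% of all genes lower and 16.5% higher. Against the dose effect of Sayeok-tang it was more negative for 37 genes, against 12.2% of all genes. Levels at 500 µg/mL compare formulas across sets of libraries, so formula and set cannot be told apart there, while each dose effect was measured inside 1 set. The largest differences in dose effect between Banhasasim-tang and Sayeok-tang were those of UHRF1 (log2 -1.06 ± 0.06 SE) and ORC1 (-0.96 ± 0.09 SE), whereas CDT1, CDC45, POLE, RFC4, RPA2 and CDC6 did not pass that test. The CDC6 call in the interaction with Bojungikgi-tang, 0.15 ± 0.06 (SE, adjusted p = 0.04), was not made under any of the other scalings or in a fit of the compared groups alone.

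Against vehicle, 39 of the 43 genes were lower and CDC6 was higher at 500 µg/mL of Banhasasim-tang, where 25.1% of all genes were called lower and 25.9% higher. At 500 µg/mL of Sayeok-tang 16 were lower and 4 higher, where 19.4% of all genes were called lower and 18.8% higher. At 500 µg/mL of Bojungikgi-tang 6 were lower and 11 higher, where 18.2% were called lower and 16.4% higher. At 20 µg/mL of Sayeok-tang 16 genes were higher, where 12.0% of all genes were called higher and 13.4% lower. At 20 µg/mL of Bojungikgi-tang 16 genes were higher, where 12.4% were called higher and 13.8% lower. At 20 µg/mL of Banhasasim-tang 4 genes were higher and 3 lower, where 8.89% were called higher and 9.39% lower.

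Scaling by total counts alone, which set the median of all genes at -0.12 on the log2 scale when Banhasasim-tang at 500 µg/mL was set against vehicle, gave other splits of higher and lower genes. At 500 µg/mL of Banhasasim-tang 0 genes were higher and 42 lower, where 17.9% of all genes were called higher and 34.5% lower under that scaling. At 20 µg/mL of Banhasasim-tang 2 were higher and 10 lower, against 5.64% and 15.7% of all genes. For Sayeok-tang at 500 µg/mL 7 were higher and 14 lower, against 21.0% and 16.9% of all genes. For Bojungikgi-tang at 500 µg/mL 13 were higher and 2 lower, against 19.4% and 14.4% of all genes. E2F1 was among the genes higher at 20 µg/mL against vehicle under all 3 formulas, at log2 0.30 ± 0.06 for Banhasasim-tang, 0.24 ± 0.05 for Sayeok-tang and 0.28 ± 0.05 for Bojungikgi-tang (SE). At 500 µg/mL of Banhasasim-tang it averaged 42.6 ± 4.1 CPM (SD, n = 2), against 43.3 ± 1.0 CPM in vehicle libraries (SD, n = 3), and it was not called.

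The genes higher at 20 µg/mL than in vehicle were rich in G and C. The 16 higher genes had a median GC content of 55.4% for both Sayeok-tang and Bojungikgi-tang, against 45.4% for the other 27 genes. Over all genes, those called higher at 20 µg/mL of Sayeok-tang had a median of 57.3% and those called lower 41.3%, and for Bojungikgi-tang these were 57.5% and 41.6%. For Banhasasim-tang at 20 µg/mL they were 58.7% and 40.9%, against 48.3% over all genes tested. The part of GC content in the differences from vehicle was not tested.

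**Figure D4:**
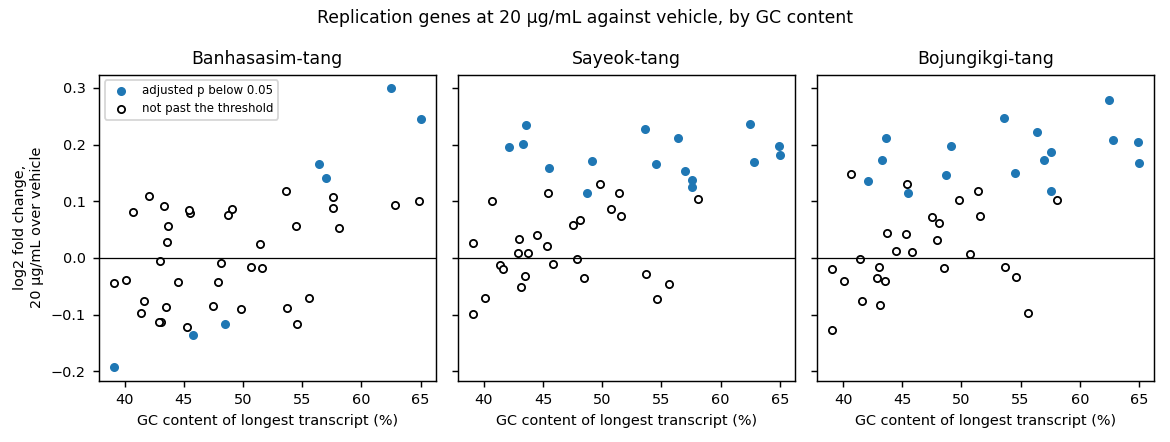
Log2 fold change at 20 µg/mL over vehicle (vertical axis) of the 43 genes against the GC content in percent of the longest transcript (horizontal axis), for 3 formulas, with filled points for adjusted p below 0.05. The 16 filled points of Sayeok-tang and of Bojungikgi-tang all lie above 0 and most lie right of 50% GC, and E2F1 is the highest filled point under Banhasasim-tang at 0.30.

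Another 64 genes of DNA replication were listed from textbook knowledge of licensing, polymerases, nucleotide metabolism, chromatin and E2F regulation. Both this list and the 43 were chosen with earlier results of these data known, so their contrast is only descriptive. The 64 moved less uniformly. At 500 against 20 µg/mL of Banhasasim-tang 36 fell and 7 rose, with a median log2 change of -0.25, against -0.51 for the 43, where 21.3% of all genes were called lower and 22.3% higher. Under Sayeok-tang 20 fell and 1, TFDP2, rose, where 10.6% of all genes were called lower and 9.89% higher. Under Bojungikgi-tang 7 fell and 3 rose, which is 10.9% lower of the 64, near the 8.90% of all genes called lower, and 6.64% of all genes were called higher. The 5 called with the largest changes under Sayeok-tang were E2F8, CCNA2, CDK2, CCNE2 and TICRR, all lower. E2F8, a repressor of E2F targets, averaged 7.39 ± 0.52 CPM at 500 µg/mL and 11.2 ± 1.1 CPM at 20 µg/mL of Sayeok-tang (SD, n = 3 each), and 4.13 ± 0.05 and 10.2 ± 0.1 CPM at the same doses of Banhasasim-tang (n = 2 each). CCNA2, the S-phase cyclin, fell by 0.46 under Sayeok-tang and by 0.92 under Banhasasim-tang on the log2 scale, and CDK2, the kinase it binds, fell by 0.34 and 0.65. CCNE2, a cyclin of the entry into S phase, fell by 0.34 under Sayeok-tang and by 1.25 under Banhasasim-tang. TICRR, which helps to fire origins, fell by 0.32 and 0.97. E2F7, a repressor of the same family as E2F8, went the other way under Banhasasim-tang and was named after its value was seen. It averaged 240.5 ± 2.1 CPM at 500 µg/mL and 92.3 ± 0.7 CPM at 20 µg/mL (SD, n = 2 each; log2 1.38 ± 0.08 SE, adjusted p = 4.95e-14).

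A list of 25 mitosis genes was also chosen with earlier results of these data known. It fell in full under Banhasasim-tang and Sayeok-tang at 500 against 20 µg/mL, and 12 of the 25 fell under Bojungikgi-tang. Their median log2 changes were -0.75, -0.46 and -0.12 in that order of formulas, against -0.51, -0.14 and -0.06 for the 43 replication genes. Summed over the list, the level was 1976 to 2020 CPM at 500 µg/mL and 2726 to 2809 CPM at 20 µg/mL of Sayeok-tang, without overlap.

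For Yijung-tang, with 1 library per dose, there is no replicate check and no test. Between 500 and 20 µg/mL, 35 of the 43 genes were lower and 4 were lower by more than 1.2-fold, where 16.3% of all genes tested were. Of all genes tested, 49.1% were lower at 500 µg/mL. The median log2 ratio was -0.10 for the 43 and 0.0022 for all genes. RRM2 was 219 CPM at 20, 218 CPM at 100 and 166 CPM at 500 µg/mL, UHRF1 was 80.6, 78.4 and 62.3 CPM, and MCM10 was 33.2, 32.4 and 26.4 CPM at the same doses. CDC6 was 95.6 CPM at 20, 94.3 CPM at 100 and 90.8 CPM at 500 µg/mL, and GINS3 had the highest ratio, with 15.0 CPM at 500 µg/mL and 14.1 CPM at 20 µg/mL.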

How the data were processed

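RNA of 30 libraries of SW1783 cells in 13 groups was measured by RNA sequencing. The authors deposited expected counts per gene. RSEM 1.3.3, STAR 2.7.3a, FastQC 0.11.9 and Trim Galore 0.6.5 are listed, without order, in the submitters' processing notes, as is the build hg38 (GRCh38). The annotation release and the strand setting are not given in the sources used here. Between 9.36 and 11.1% of values per library had a fraction. Values were rounded to whole counts before any test. Rounding moves a value by less than 1 count.

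Symbols were found for 56558 identifiers (93.2%). Gene lengths and GC content came from GENCODE v29, and promoters from RefSeq (GRCh38.p14). Genes passed edgeR's filterByExpr (19632) and libraries were scaled by TMM. One model of 13 group means was used, with edgeR's glmQLFit (robust) and glmQLFTest (edgeR 4.0.16, R 4.3.3), with Benjamini-Hochberg adjustment over all genes tested at 0.05. The scripts were tested on simulated data. CPM values use TMM-scaled library sizes, and Yijung-tang log2 ratios use CPM + 0.1. Alternatives were scaling by library size or RLE, no filter, a replicate block, DESeq2 1.42.0, the compared groups alone, leaving out each library, and, added after seeing the data, no mitochondrial genes and a block within set 15.

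The 43 genes and the other lists were chosen with earlier results of these data known. Values in each replicated library at 500 and 20 µg/mL are given for the genes with the lowest and highest log2 change of each role in Sayeok-tang at 500 against 20 µg/mL and the 3 largest differences of dose effect between Sayeok-tang and Bojungikgi-tang. ORC1, MCM10 and FEN1 were added after their values were seen, as were GINS2 and E2F7.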

Additional observations from a re-analysis of the deposited data

Results flagged for a closer look

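The results here were picked out because the effect of 500 against 20 µg/mL differed between 2 formulas in a test of the difference itself (an interaction term in edgeR's quasi-likelihood fit, Benjamini-Hochberg adjusted p below 0.05). All values are differences of log2 fold changes, and a negative value means that the gene fell more with dose under the formula named first. Of the genes called in the Banhasasim-tang tests only a part is listed, mainly those with values by library above. These lists are therefore not full rankings.

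Between Sayeok-tang and Bojungikgi-tang, 4 of the 43 genes had a more negative dose effect, against 2.37% of all genes. They were RRM2 at -0.36, TYMS at -0.36, RRM1 at -0.24 and POLA1 at -0.24. These are RNAs of deoxynucleotide supply and of the polymerase that primes new strands.

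Between Banhasasim-tang and Bojungikgi-tang, 40 genes had a more negative dose effect and 1, CDC6, a more positive one, at 0.15. Of all genes, 15.3% were called lower and 16.5% higher in this test. The CDC6 call was not made under library size only, RLE, no filter, the compared groups only or without mitochondrial genes. The largest differences were ORC1 at -1.15, UHRF1 at -1.10, RRM2 at -1.01 and MCM10 at -0.96. FEN1 differed by -0.77, POLE2 by -0.73, TYMS by -0.68, POLA1 by -0.67, RFC3 by -0.61, TK1 by -0.57 and RRM1 by -0.54. The smaller of the listed differences were GINS3 at -0.42, CHAF1B at -0.39, MCM7 at -0.30 and CDC45 at -0.24.

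Between Banhasasim-tang and Sayeok-tang, 37 genes had a more negative dose effect, against 12.2% of all genes. UHRF1 differed by -1.06, ORC1 by -0.96, MCM10 by -0.79, POLE2 by -0.71, FEN1 by -0.71 and RRM2 by -0.65. TK1 differed by -0.50, RFC3 by -0.44, POLA1 by -0.44, CHAF1B by -0.36, GINS3 by -0.34, TYMS by -0.32, RRM1 by -0.31 and MCM7 by -0.20. The 2 formulas belong to different sets of libraries, and each dose effect was measured inside its own set.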

How the results depend on the processing

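Counts are genes of the 43 called lower or higher, and no share of all genes is given for fits with a library left out. At 500 against 20 µg/mL the lower count for Bojungikgi-tang (5) was 3 with scaling by library size only and 1 with the compared groups only. Of all genes, 5.21% and 4.12% were called lower there. The count ran from 3 to 7 when a library was left out, with 3 without the third replicate at 500 µg/mL. For Sayeok-tang (25) it was 16 by library size only, where 7.96% of all genes were called lower, and 16 to 24 with a library left out. For Banhasasim-tang (41) it was 40 to 41 with a library left out. At 100 against 20 µg/mL of Banhasasim-tang (32) it was 19 to 23 with a library left out, and at 500 against 100 µg/mL 30 to 35. The cause was not tested for these or the changes below, except that leaving out a library leaves fewer samples.

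Against vehicle, library size only gave 2 lower at 500 µg/mL of Bojungikgi-tang (14.4% of all genes) and 7 higher for Sayeok-tang at 500 µg/mL (21.0%). It gave 0 higher for Banhasasim-tang at 500 µg/mL (17.9% of all genes) and 1 lower at 20 µg/mL of Bojungikgi-tang (15.3%). For Banhasasim-tang at 20 µg/mL it gave 10 lower and 2 higher (15.7% and 5.64% of all genes). No filter gave 2 lower at 500 µg/mL of Bojungikgi-tang (8.15% of all genes). Without the filter Banhasasim-tang at 20 µg/mL had 0 lower and 2 higher (4.32% and 5.39% of all genes). The compared groups only gave 8 higher for Bojungikgi-tang at 20 µg/mL (8.09% of all genes). For Banhasasim-tang at 20 µg/mL they gave 6 lower and 9 higher (16.2% and 16.7% of all genes). With a library left out, Bojungikgi-tang at 500 µg/mL had 2 to 7 lower and 7 to 10 higher, with 2 lower without the first vehicle replicate, and 7 higher without the second vehicle replicate, the third vehicle replicate or its own second replicate. At 20 µg/mL Bojungikgi-tang had 0 to 1 lower, and Banhasasim-tang 0 to 3 lower and 2 to 4 higher, with 0 lower without the first vehicle replicate or the third Banhasasim-tang replicate, and 1 lower and 2 higher without its second.

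Between formulas at 500 µg/mL, Sayeok-tang against Bojungikgi-tang had 11 lower and 1 higher in DESeq2, 13 lower and 1 higher with the compared groups only, and 4 to 6 lower and 0 to 1 higher with a library left out. Lower counts of 4 came without the second replicate of either formula. Banhasasim-tang against Bojungikgi-tang had 0 higher by library size only and with no filter, where 14.0% and 12.2% of all genes were called higher. In the interaction of these formulas the higher call of CDC6 was 0 under library size only, RLE, no filter, the compared groups only and without mitochondrial genes, and 0 to 1 with a library left out. Library size only set the median of all genes at -0.15 on the log2 scale at 500 µg/mL for Banhasasim-tang against Bojungikgi-tang and against Sayeok-tang, and at -0.11 and -0.10 in its interactions with them.

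Of the 43 log2 changes at 500 against 20 µg/mL, 17 turned sign in at least 1 alternative for Bojungikgi-tang (11 of them by library size only), 6 for Sayeok-tang (4 by library size only) and 0 for Banhasasim-tang, and none of these was called, either as reported or with the turned sign. Genes called or named are given by value (19 for Bojungikgi-tang, 31 for Sayeok-tang). By library size only, Bojungikgi-tang had ORC1 at 0.0405, RPA2 at 0.0409 and RRM1 at 0.0203, and Sayeok-tang had CDC6 at 0.0226, GINS3 at 0.0142 and CHAF1B at 0.0048. With a library left out, the ranges under Bojungikgi-tang were -0.0387 to 0.0039 for ORC1, -0.0076 to 0.0909 for GINS3, -0.0007 to 0.0446 for POLD1, -0.0555 to 0.0678 for RPA2 and -0.02 to 0.0368 for CHAF1B. Under Sayeok-tang they were -0.0328 to 0.0117 for CDC6, -0.0424 to 0.0034 for GINS3, -0.0173 to 0.0384 for POLD1 and -0.0078 to 0.0673 for POLE2.

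Replicate numbers showed no clear pairing of the libraries. Same-numbered libraries of different groups in set 15 had correlations of their deviations from -0.518 to 0.532 (median 0.035 over 45 pairs, 12 of them above 0.1). Differently numbered libraries there ran from -0.621 to 0.596 (median 0.0075 over 90 pairs, 20 of them above 0.1). In set 14 the medians were -0.089 for same-numbered and 0.089 for differently numbered libraries, over 6 pairs each. With a replicate block the lower counts at 500 against 20 µg/mL were 41 for Banhasasim-tang, 25 for Sayeok-tang and 5 for Bojungikgi-tang. Of all genes, 21.6%, 10.9% and 9.18% were called lower there. With the block within set 15 alone the counts were 23 for Sayeok-tang and 5 for Bojungikgi-tang, against 10.5% and 8.11% of all genes. At 28.01 to 59.9 M counts per library, every gene of the 43 was at 7.39 CPM or above.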
